A study of Mus musculus with 6 samples.

Results

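The genes described here build and run mitosis: the kinases and cyclins that start it, the kinetochores and spindle that move chromosomes, the checkpoint that times their separation, and the proteins that divide the cell. The set was drawn up by gene symbol as 56 mouse genes, and 55 of them were measured. A gene was measured where the array held a probe set annotated to that symbol alone, and of several such probe sets the one brightest on average over the 6 arrays was taken. The symbol Sgol1 was found under its current name, Sgo1. The probe set of Ncapg also names a second gene, so Ncapg is not analysed here. The 55 genes were read from a fit over all 22180 genes.

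The study compared cerebellum from mice at postnatal day 7. The wild-type group (3 arrays) carried Math1Cre with wild-type Crebbp, and the knockout group (3 arrays) carried Math1Cre::CrebbpFl/Fl, that is, Cre with both Crebbp alleles floxed, so both groups carry the Cre transgene. Math1 (Atoh1) marks granule neuron precursors and their rhombic lip relatives, so the deletion is aimed at that lineage, while the RNA came from whole cerebellar tissue that also holds cells outside it. CREBBP is a lysine acetyltransferase and transcriptional coactivator. The series title frames the comparison as chronic loss of Crebbp from granule neuron precursors during development. Since separate animals per array are not stated in the labels, a p-value covers the spread between these samples only, and that spread may be technical.

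In the first postnatal weeks granule neuron precursors divide in the external granule layer under the mitogen Sonic hedgehog, and this makes the young cerebellum one of the most proliferative parts of the brain. Genes of mitosis are transcribed mainly in late S and G2 phase, when the MuvB complex, with B-MYB and then FOXM1, turns on promoters that commonly hold a CHR element and CCAAT boxes bound by NF-Y. Their RNA level in a tissue follows both how many cells divide and how much RNA each dividing cell holds. In whole tissue, fewer dividing cells and less RNA per dividing cell cannot be told apart.

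The values are log2 expression values, so a difference of 1 is a 2-fold change, and every change below is knockout minus wild type. Crebbp itself read 11.96, 11.995 and 11.90 in wild type and 11.46, 11.42 and 11.32 in knockout. It fell by 0.56 (SE 0.05, limma adjusted p = 0.000354), though whether its probe set covers the deleted part is not known here. The 11 genes listed as granule neuron precursor markers include Atoh1, Barhl1, Zic1 and Pax6. Their mean ran from 10.58 to 10.69 over the 6 arrays, beside 7.77 to 7.78 for all genes. A mean above that of all genes shows that these genes were well expressed and does not by itself check the tissue label. Behind the flat mean of the 11 markers, 2 rose, 4 fell and 5 did not pass (limma), where 2.72% of all genes rose and 3.94% fell. Atoh1 rose by 0.52 (adjusted p = 0.00191) and Ccnd1, which encodes cyclin D1, by 0.24, while Pax6 fell by 0.30, Ccnd2 by 0.33, Zic1 by 0.24 and Zic2 by 0.25. One tissue stood out between arrays: 10 measured choroid plexus markers averaged 7.73, 7.08 and 7.11 in wild type and 8.81, 7.14 and 9.45 in knockout. Their most abundant marker, Ttr, which encodes transthyretin, lay above 10 on wild-type replicate 1 and knockout replicates 1 and 3. All 10 of these markers had a change above 0, and 0 of them passed the limma test (adjusted p under 0.05). An unadjusted p under 0.05 was seen for 7 of them, beside 20.4% of all genes. The deposited values carry no detection call; the lowest mean among the 55 mitosis genes was 8.14, above the 25th percentile of all probe sets (6.02).

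Most mitosis genes were measured close to their wild-type level in the knockout. Of the 55 genes, 1 rose, 1 fell and 53 did not pass, where a gene passed at a limma adjusted p under 0.05 with Benjamini-Hochberg adjustment over all genes. Spc24, a subunit of the kinetochore's NDC80 complex, rose by 0.88, which is 1.84-fold with a 95% confidence interval of 1.65 to 2.04. Cenpf, a large kinetochore protein made in G2 phase, fell by 0.27, to 0.832 of the wild-type level (0.77 to 0.899). Among all genes 2.72% rose and 3.94% fell, 6.67% in all, so 2 of 55 is not more than genes in general.

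The changes that did not pass were small, and their intervals give their possible size. Their 95% intervals ran from -0.52 at the lowest (Sgo1) to 0.34 at the highest (Anln), so no single interval of these 53 genes reached further than a 1.43-fold decrease or a 1.26-fold increase. The median width of an interval was 0.14 to either side. The median change of the 55 genes was -0.065, against -0.0028 for all genes. Between arrays of a group the set's median had an SD of 0.054. Of the 55 genes 41 had a change below 0, which was so for 50.9% of all genes. At an unadjusted p under 0.05 there were 12 with a lower and 5 with a higher value in knockout, together 30.9% of the set, beside 10.9%, 9.57% and 20.4% of all genes. For 9 genes the 3 knockout values all lay below the 3 wild-type values, and for 3 they all lay above (13.1% and 11.8% of all genes). These counts do not stand for 55 separate observations, because the genes moved together from array to array, as described further on. The same holds for the counts by role below, which are to be read beside these shares of all genes. Within groups the genes were steady, with a median SD of 0.07 in wild type and 0.077 in knockout.

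**Figure D1:**
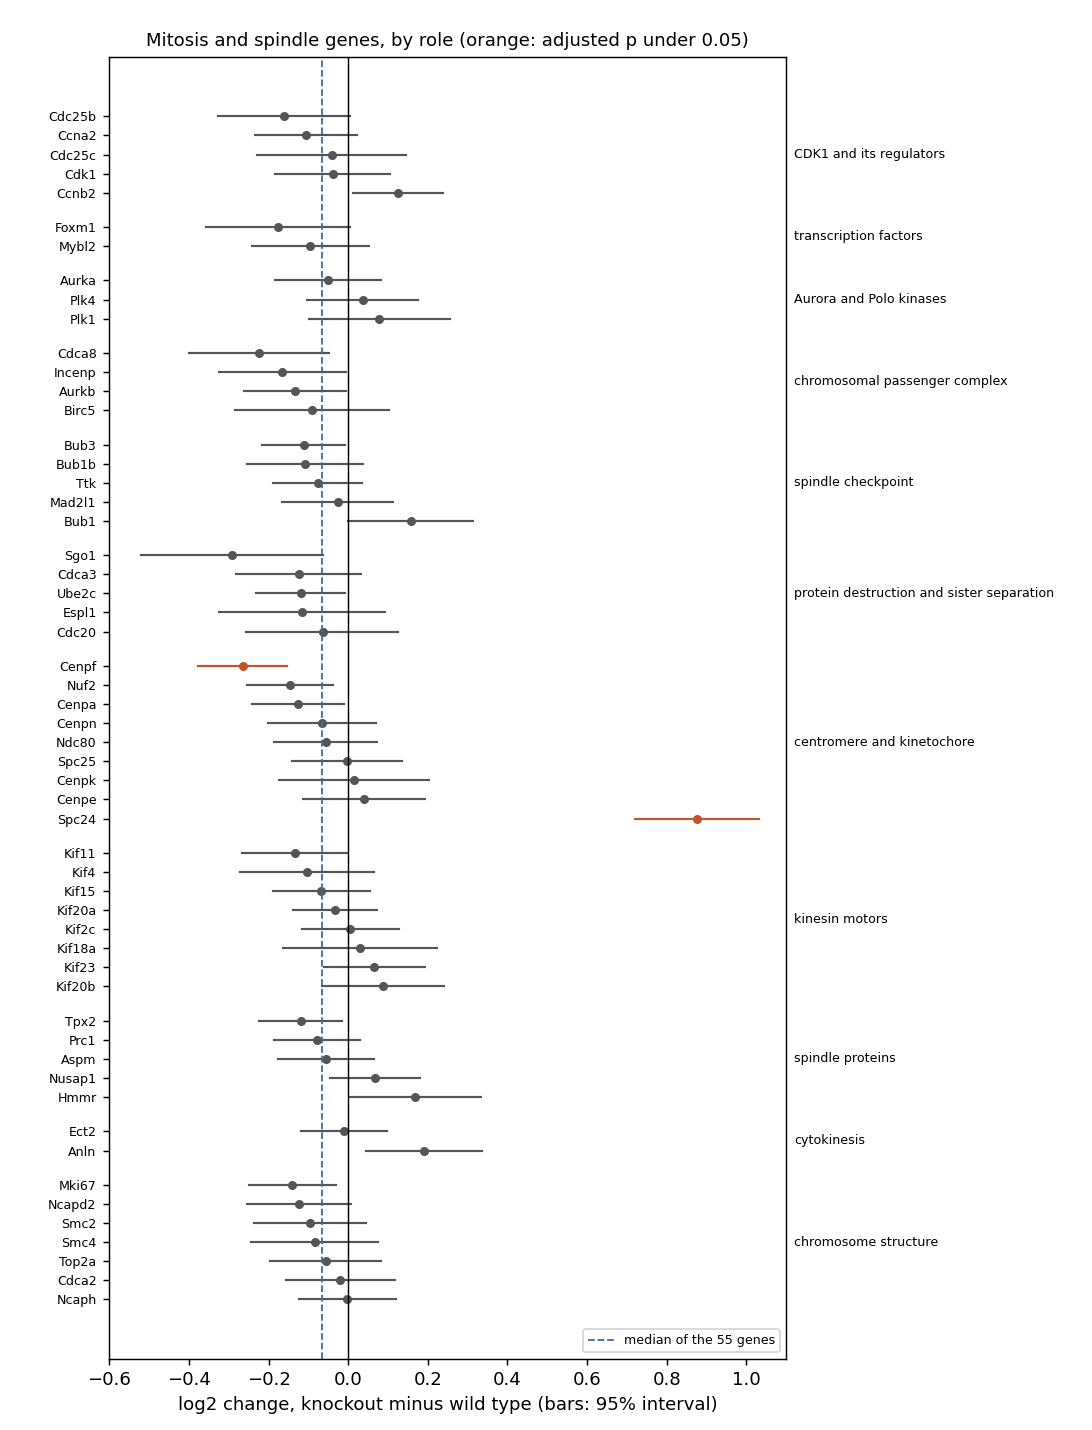
Log2 change (knockout minus wild type, horizontal axis) of the 55 measured mitosis and spindle genes, grouped by role, with the 95% interval from limma as a bar. Spc24 at 0.88 and Cenpf at -0.27 are the genes that passed; the dashed line marks the median of -0.065.

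The kinetochore joins each chromosome to spindle microtubules, and it held both genes that passed, with 7 of its 9 measured genes not passing. Spc24 read 8.77, 8.54 and 8.78 in wild type and 9.55, 9.55 and 9.61 in knockout. All fits of Spc24 read the same 1 probe set, and which part of the gene it covers is not known here. Every knockout array lay far above every wild-type array, and the gap between the groups was several times the spread within them. Its change was 0.88 (SE 0.07, limma adjusted p = 0.000218), and it ranked 25 among the 604 genes that rose. The change ran from 0.80 to 0.92 over 16 alternative fits, all of which it passed, including those that left out any 1 array (adjusted p from 0.000132 to 0.00811).

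SPC24 works only inside the NDC80 complex, a rod in which it pairs with SPC25 at the end that faces the chromosome, while NDC80 and NUF2 form the end that grips the microtubule. None of the partner subunits passed the test. Spc25 read 9.23, 9.21 and 9.26 in wild type and 9.35, 9.17 and 9.17 in knockout, a change of -0.0022 with an interval of -0.14 to 0.14. Ndc80 read 9.91, 9.79 and 9.91 in wild type and 9.88, 9.83 and 9.73 in knockout, a change of -0.056 (-0.19 to 0.073). The groups overlapped for both. Nuf2 read 10.19, 10.22 and 10.19 in wild type and 10.12, 10.05 and 9.99 in knockout, so its groups did not overlap, but its change of -0.15 did not pass (SE 0.05, limma adjusted p = 0.115). Set against the mean of these 3 partners on the same array and relative to wild type, Spc24 stood at 0.84, 0.94 and 1.05 in knockout and at 0.066, -0.13 and 0.06 in wild type. The difference was 0.94, and the two-sided exact permutation test gave p = 0.1, the smallest that 3 against 3 arrays allow. The comparison was chosen after the values were seen. The Spc24 groups were then known to lie far apart, so this test adds no evidence to the limma result.

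**Figure D2:**
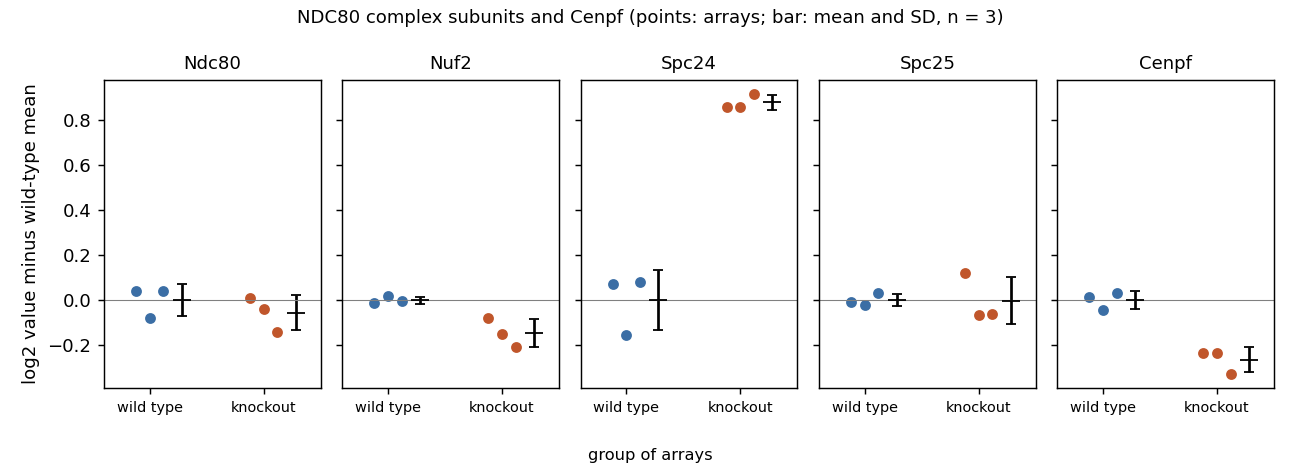
Log2 values of the 4 NDC80 complex subunits and Cenpf on each array, minus the gene's wild-type mean (vertical axis), for wild-type (blue) and knockout (orange) arrays; the black bar is the mean and SD of 3 arrays. Spc24 stands apart at 0.88 above its wild-type mean while Ndc80, Nuf2 and Spc25 lie between -0.15 and -0.0022 on average.

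Cenpf read 10.18, 10.12 and 10.20 in wild type and 9.93, 9.93 and 9.84 in knockout. The groups did not overlap, and the lowest value was that of knockout replicate 3. Its change was -0.27 (SE 0.05, limma adjusted p = 0.0132). The call was lost without wild-type replicate 1 (change -0.26, adjusted p = 0.0695), without a trend in the prior variance (adjusted p = 0.071), with the choroid plexus mean as an added term (-0.23, adjusted p = 0.103) and without the 3 arrays with high Ttr (-0.23, adjusted p = 0.375), a fit that holds 1 knockout array and assumes that it varies like the wild-type arrays. Cenpa, the histone variant that marks the centromere, read 9.75, 9.64 and 9.76 in wild type and 9.61, 9.58 and 9.57 in knockout. Its groups lay apart, but the change of -0.13 did not pass (adjusted p = 0.199). The inner kinetochore genes Cenpk and Cenpn had changes of 0.016 and -0.065, and Cenpe, a motor that carries chromosomes to the spindle's middle, one of 0.04, all with overlapping groups.

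CDK1 with its cyclins is the engine of mitotic entry, and 0 of 5 genes of this group passed the limma test, 1 with an unadjusted p under 0.05. Cdk1 read 9.45, 9.36 and 9.56 in wild type and 9.46, 9.47 and 9.34 in knockout, with groups that overlapped throughout and a change of -0.039 (interval -0.18 to 0.11). Ccnb2, which encodes cyclin B2, was among the few genes with higher values in knockout. It read 10.05, 10.16 and 10.15 in wild type and 10.30, 10.23 and 10.21 in knockout, apart on every array, yet its change of 0.13 did not pass (adjusted p = 0.193). Ccna2, encoding cyclin A2, had a change of -0.11, and the phosphatases that activate CDK1, Cdc25b and Cdc25c, had changes of -0.16 and -0.042.

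The transcription factors that turn on this set did not pass either. Foxm1 read 9.45, 9.28 and 9.35 in wild type and 9.23, 9.32 and 9.003 in knockout, with the low value on knockout replicate 3. Its change was -0.18 (interval -0.36 to 0.0058, adjusted p = 0.262), -0.086 without that array and 0.0001 without the 3 arrays with high Ttr. Mybl2, encoding B-MYB, read 9.06, 9.05 and 9.10 in wild type and 9.10, 8.95 and 8.87 in knockout, a change of -0.095 with overlapping groups. It was the only gene of the set with another probe set, whose change was 0.13 (adjusted p = 0.593) at a mean of 6.34.

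Aurora and Polo kinases drive the steps from centrosome separation to chromosome segregation. Plk1, the Polo-like kinase of mitosis, read 10.05, 9.77 and 10 in wild type and 10.13, 10.01 and 9.92 in knockout. Its change was 0.079 (interval -0.099 to 0.26), and the groups overlapped. Aurka, the centrosome kinase, and Plk4, the kinase of centriole duplication, had changes of -0.051 and 0.037. The limma test called 0 of these 3 genes, and 0 had an unadjusted p under 0.05.

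The chromosomal passenger complex corrects faulty attachments, with AURKB as its kinase, INCENP as its scaffold and survivin (Birc5) and borealin (Cdca8) placing it on the centromere. All 4 genes had changes below 0, from -0.22 to -0.091, 0 passed the limma test and 3 had an unadjusted p under 0.05. Among all genes 50.9% had a change below 0 and 20.4% such a p. Aurkb read 10.09, 9.93 and 10.03 in wild type and 9.96, 9.87 and 9.83 in knockout (change -0.13, adjusted p = 0.226). Knockout replicate 1 lay above wild-type replicate 2, so these groups overlapped. Cdca8 read 9.04, 8.97 and 9.16 in wild type and 8.90, 8.92 and 8.68 in knockout, the only gene of the complex with groups apart (change -0.22, adjusted p = 0.136). Incenp read 9.60, 9.56 and 9.67 in wild type and 9.58, 9.46 and 9.30 in knockout (change -0.17, adjusted p = 0.227). For all 4 genes of the complex the lowest knockout array was replicate 3, as it was for 50 of the 55 genes. Birc5 read 8.26, 8.05 and 8.30 in wild type and 8.22, 8.13 and 7.98 in knockout, with overlapping groups and a change of -0.091 (interval -0.28 to 0.10).

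The spindle checkpoint holds back chromosome separation until every kinetochore is attached. Of its 5 genes 0 passed the limma test, and 2 had an unadjusted p under 0.05, in opposite directions. Bub3 read 11.50, 11.52 and 11.41 in wild type and 11.35, 11.41 and 11.33 in knockout. The lowest wild-type array and the highest knockout array nearly met, and the change was -0.11 (adjusted p = 0.207). The kinase gene Bub1 had a change of 0.16 (adjusted p = 0.243), while Bub1b, Ttk and Mad2l1 had changes of -0.11, -0.076 and -0.027.

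Once the checkpoint is met, CDC20 and the ubiquitin-conjugating enzyme UBE2C let the anaphase-promoting complex destroy securin and cyclin B, separase (Espl1) cuts cohesin, and shugoshin (Sgo1) has until then protected it. All 5 genes of this group had changes below 0, 0 passed the limma test and 2 had an unadjusted p under 0.05 (50.9% of all genes were below 0, and 20.4% had such a p). Sgo1 read 9.09, 9.03 and 9.06 in wild type and 8.85, 8.96 and 8.496 in knockout. It had the largest change below 0 of the set, -0.29 (SE 0.10, adjusted p = 0.133), but the knockout arrays were widely spread and without knockout replicate 3 the change was -0.16. Ube2c read 9.94, 9.86 and 9.93 in wild type and 9.77, 9.85 and 9.76 in knockout (change -0.12, adjusted p = 0.217), with groups apart by a small margin. Cdc20 read 10.20, 9.92 and 10.29 in wild type and 10.13, 10.09 and 9.996 in knockout. All knockout arrays lay inside the wild-type range, and the change was -0.064 (interval -0.26 to 0.13). Espl1 and Cdca3, an adaptor in the destruction of a mitotic inhibitor, had changes of -0.12 and -0.12.

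Kinesin motors slide and shorten spindle microtubules, and their changes lay evenly about 0: 4 of 8 were below and 4 above, between -0.13 and 0.088. The limma test called 0 of the 8, and 1 had an unadjusted p under 0.05, Kif11, the motor that pushes spindle poles apart (change -0.13, adjusted p = 0.235). No kinesin gene had groups that lay apart. Kif4, a chromosome-bound motor, and Kif15, which can stand in for KIF11, had changes of -0.10 and -0.067. Kif2c, a microtubule depolymerase, had a change of 0.0057 (interval -0.12 to 0.13), and Kif18a, which limits chromosome swings, one of 0.03. The central spindle motors Kif20a, Kif20b and Kif23 had changes of -0.033, 0.088 and 0.066.

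Spindle assembly and cytokinesis genes held 3 of the 14 changes above 0, among them the largest after Spc24. Anln, which encodes the contractile ring scaffold anillin, read 9.43, 9.25 and 9.41 in wild type and 9.59, 9.62 and 9.47 in knockout. The groups lay apart, but the change of 0.19 did not pass (SE 0.07, adjusted p = 0.123). Ect2, the exchange factor that switches on the ring, had a change of -0.011 (interval -0.12 to 0.097). Hmmr, a spindle pole protein, read 8.42, 8.41 and 8.52 in wild type and 8.70, 8.68 and 8.48 in knockout, with knockout replicate 3 inside the wild-type range (change 0.17, adjusted p = 0.232). Tpx2, which activates AURKA on the spindle, went the other way. It read 10.54, 10.55 and 10.55 in wild type and 10.45, 10.47 and 10.36 in knockout, apart on every array at a change of -0.12 that did not pass (adjusted p = 0.182). The microtubule-binding proteins Nusap1, Prc1 and Aspm had changes of 0.068, -0.078 and -0.056. Of the 5 spindle and 2 cytokinesis genes 0 passed the limma test, and 2 and 1 had an unadjusted p under 0.05.

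Genes of chromosome structure include the proliferation marker Mki67, whose product coats mitotic chromosomes, topoisomerase II alpha (Top2a) and the condensins. All 7 measured genes of the group had changes below 0, 0 passed the limma test and 1 had an unadjusted p under 0.05 (50.9% and 20.4% of all genes for the first and last). Mki67 read 11.66, 11.65 and 11.68 in wild type and 11.60, 11.53 and 11.44 in knockout. The groups lay apart, and the change was -0.14 (SE 0.05, adjusted p = 0.132), 0.907 of the wild-type level with an interval of 0.842 to 0.979. Top2a read 10.87, 10.75 and 10.96 in wild type and 10.86, 10.84 and 10.72 in knockout (change -0.056, interval -0.20 to 0.083), with overlapping groups. The condensin genes Smc2, Smc4, Ncapd2 and Ncaph had changes of -0.095, -0.084, -0.12 and -0.0017, and Cdca2, a phosphatase partner on chromosomes, one of -0.02.

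**Figure D3:**
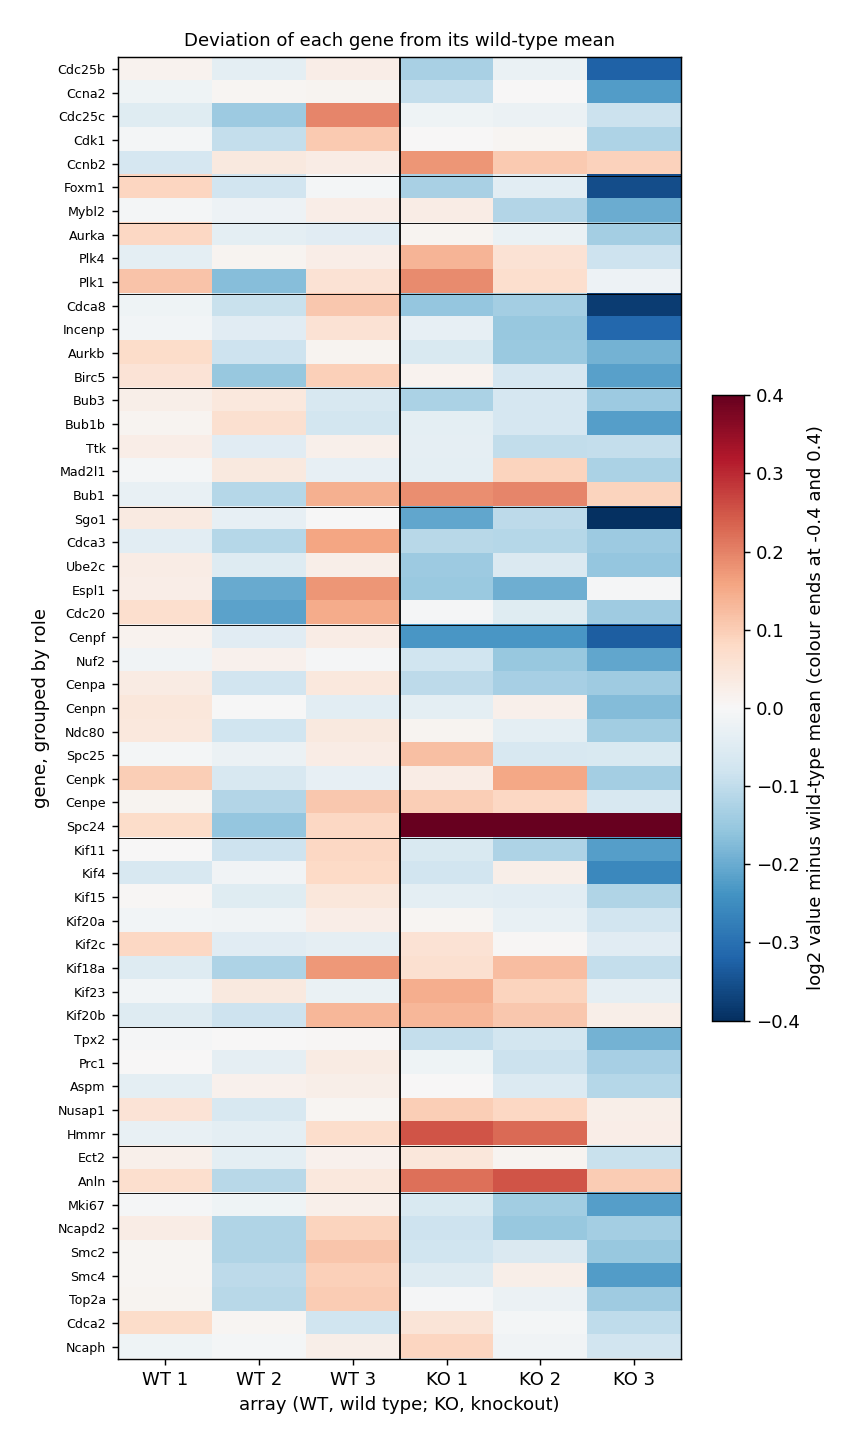
Log2 value of each of the 55 genes (rows, grouped by role) on each of the 6 arrays (columns) minus the gene's wild-type mean; red is higher, blue lower, and colours end at -0.4 and 0.4. Spc24 is higher on all 3 knockout arrays, and the column of knockout replicate 3 is the lowest of its group for 50 of 55 genes.

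The shift below 0 was uneven between arrays and largest on knockout replicate 3. The median of the 55 genes relative to their wild-type means was 0.0088, -0.046 and 0.03 on wild-type replicates 1, 2 and 3 and -0.016, -0.029 and -0.14 on knockout replicates 1, 2 and 3. Knockout replicate 3 held the lowest of the 3 knockout values for 50 of 55 genes, where it did so for 39.3% of all genes. In wild type, replicate 2 was the lowest for 40 of 55 genes (31.4% of all genes), and knockout replicates 1 and 2 lay between it and the other wild-type arrays. Leaving out knockout replicate 3 gave a median change of -0.026. Leaving out wild-type replicate 3 gave -0.043, and leaving out wild-type replicate 2 gave -0.096. Knockout replicate 3 was also the array with the highest choroid plexus mean (9.45). Fitted with that mean as an added term, the median change of the set was -0.033, and a fit on the 3 arrays with low Ttr gave -0.022. Choroid plexus means were 7.73 on wild-type replicate 1 and 8.81 on knockout replicate 1, whose mitosis medians were 0.0088 and -0.016. Whether choroid plexus RNA has a part in the low values was not tested. The 11 granule neuron precursor markers were lowest on knockout replicate 3 as well, for 9 of 11 within the knockout group. Oligodendrocyte precursors also divide at this age; their 6 markers all had changes below 0 (median -0.26), 0 passed the limma test and 5 had an unadjusted p under 0.05. Of 7 markers of maturing granule neurons, which no longer divide, 0 rose and 4 fell (median change -0.52), among them Slc17a7 by 0.81 and Cntn2 by 0.77. Of 8 markers of Bergmann glia and astrocyte progenitors 2 rose, Gfap by 0.45 and Gdf10 by 0.20, and 0 fell (median 0.054). Beside the counts of these lists, 2.72% of all genes rose and 3.94% fell. For choroid plexus RNA the fits above give the values with that level as a term and without the arrays that hold most of it. The part of the other cell types in the values of the mitosis genes was not tested.

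A wider list of mitosis genes outside the set also held few genes that passed. Of 79 measured genes 0 rose, 2 fell and 77 did not pass (limma), where 2.72% of all genes rose and 3.94% fell. At an unadjusted p under 0.05, 6 were higher and 17 lower. Together these were 29.1% of the list, beside 9.57%, 10.9% and 20.4% of all genes. The median change of the 79 genes was -0.03. Cenpm, an inner kinetochore subunit, read 9.70, 9.55 and 9.72 in wild type and 9.30, 9.28 and 9.22 in knockout. It fell by 0.39 (SE 0.06, limma adjusted p = 0.00492) with groups well apart, and lost its call only without the 3 arrays with high Ttr (-0.35, adjusted p = 0.184). Nek2, a centrosome kinase, read 9.55, 9.34 and 9.48 in wild type and 9.13, 9.22 and 9.10 in knockout. It fell by 0.31 (SE 0.07, adjusted p = 0.0226) and passed in 9 of 16 alternative fits. The call ended when replicate 1 or 3 of the wild type was left out (adjusted p = 0.106 and 0.0655) or the same numbers of the knockout (adjusted p = 0.0739 and 0.0556), at changes between -0.30 and -0.26. It also ended without a trend in the prior variance (adjusted p = 0.0849), with the choroid plexus term (-0.28, adjusted p = 0.14) and without the 3 arrays with high Ttr (-0.19, adjusted p = 0.535). The next smallest p-values belonged to Nedd1, which recruits gamma-tubulin, and Tacc3, a spindle protein, with changes of 0.33 (adjusted p = 0.0554) and -0.21 (adjusted p = 0.067). Nedd1 read 8.25, 8.22 and 8.23 in wild type and 8.50, 8.78 and 8.42 in knockout, apart on every array, and it passed in 6 of 16 alternative fits, among them those without knockout replicate 3 (0.40, adjusted p = 0.0294) and with the choroid plexus term (0.49, adjusted p = 0.0168).

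S phase genes, which act before mitosis, had a median change of -0.075, against -0.065 for the mitosis set. Among 28 measured genes 0 rose and 4 fell (limma), where 2.72% and 3.94% of all genes did. At an unadjusted p under 0.05, 0 were higher and 8 lower. Together these were 28.6% of the list, beside 9.57%, 10.9% and 20.4% of all genes. The 4 that fell were E2f2 (-0.51), E2f1 (-0.43), the licensing factor Cdt1 (-0.33) and Uhrf1 (-0.33), which maintains DNA methylation after replication. E2f2 read 8.27, 8.28 and 8.31 in wild type and 7.69, 7.83 and 7.81 in knockout, apart by more than the spread within either group (adjusted p = 0.00221). E2f1 read 9.74, 9.55 and 9.69 in wild type and 9.31, 9.18 and 9.19 in knockout. Cdt1 read 9.14, 9.08 and 9.14 in wild type and 8.81, 8.79 and 8.75 in knockout. The groups of both lay apart, as did those of Uhrf1, which read 9.63, 9.46 and 9.52 in wild type and 9.24, 9.29 and 9.08 in knockout. Without the 3 arrays with high Ttr 0 of these genes passed, at changes of -0.47, -0.44, -0.31 and -0.20. Uhrf1 passed in 10 of 16 alternative fits and lost its call also without a trend in the prior variance (adjusted p = 0.0833), on leaving out replicate 1 or 3 of the wild type (adjusted p = 0.101 and 0.0506) or replicate 1 of the knockout (0.0501), and with the choroid plexus term (adjusted p = 0.151).

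**Figure D4:**
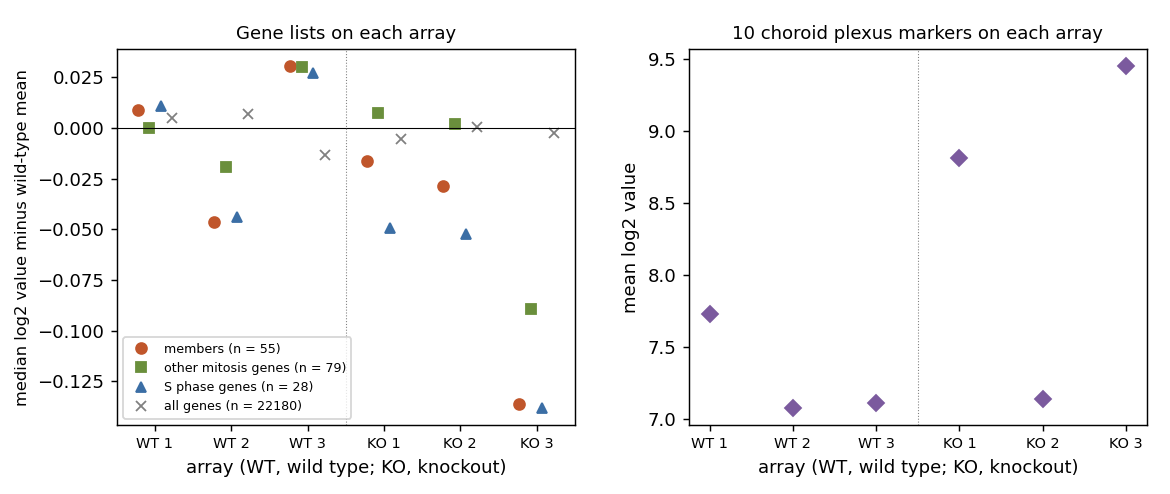
Left, the median log2 value of each gene list minus the genes' wild-type means on each array, for the 55 mitosis genes, 79 other mitosis genes, 28 S phase genes and all genes; right, the mean log2 value of 10 choroid plexus markers on the same arrays. Knockout replicate 3 has the lowest mitosis value (-0.14) and the highest choroid plexus mean (9.45).

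The promoters of the set share sequence features that the choice of genes did not use. RefSeq windows (GRCm38.p6) from 250 bases before to 50 bases after the gene start were matched by symbol for 46 of the 56 genes. Spc24, Foxm1, Aurkb, Incenp, Ccna2, Cdc25c, Cdca2, Kif20a, Smc4 and Tpx2 were not matched. The NF-Y box, CCAAT on either strand, stood in the windows of 33 of 46 genes (71.7%) and of 41.1% of all 27025 genes with a window. The CHR element, searched as TTTGAA on either strand, stood in 33 of 46 (71.7%) and in 20.2% of all genes, and both motifs in 28 of 46 (60.9%) and in 7.97% of all genes. The motifs can overlap by a single edge letter. In genes with 1 window only the shares for both were 59.5% of 42 and 7.21% of 22862. A match is a description of letters, not a bound site. Measured genes with both motifs had a median change of -0.078 (n = 27, from -0.27 to 0.17) and the other genes with a window 0.002 (n = 18, from -0.29 to 0.19). The genes not matched are outside this split, among them Spc24 (0.88) and Foxm1 (-0.18). The difference between the 2 parts was not tested.

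**Figure D5:**
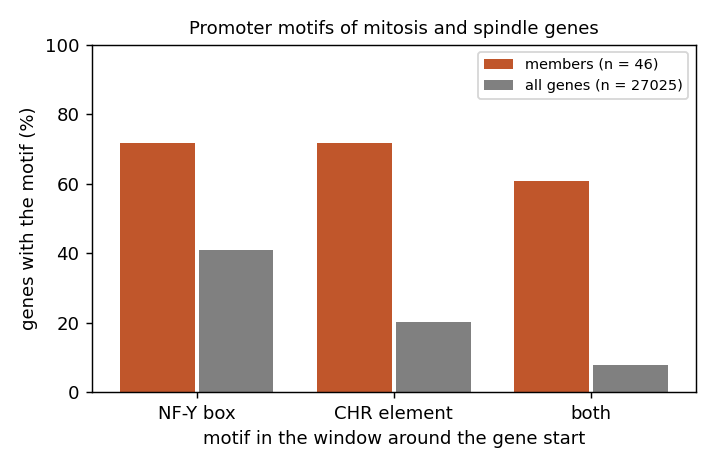
Share of genes (percent, vertical axis) whose promoter window holds an NF-Y box, a CHR element or both, for 46 mitosis genes (orange) and all 27025 genes with a window (grey). Both motifs stand in 60.9% of the mitosis genes and 7.97% of all genes.

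Stretches from 170 bases before to 30 bases after the start show how the motifs are laid out, in Cenpf, which fell, and in 4 genes at the core of the programme that did not pass. They are written 5′ to 3′ on the gene's strand, with NF-Y boxes and CHR elements on either strand in capitals. They lie at chr1:189688057-189688256 (minus strand, Cenpf), chr9:70421525-70421724 (minus, Ccnb2), chr10:69352883-69353082 (minus, Cdk1), chr7:122159265-122159464 (plus, Plk1) and chr11:117849067-117849266 (plus, Birc5) of GRCm38.p6.
Cenpf: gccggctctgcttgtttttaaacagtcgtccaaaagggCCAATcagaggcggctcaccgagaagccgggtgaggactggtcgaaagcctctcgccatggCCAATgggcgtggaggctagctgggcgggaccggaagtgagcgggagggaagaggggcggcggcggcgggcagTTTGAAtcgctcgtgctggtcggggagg
Ccnb2: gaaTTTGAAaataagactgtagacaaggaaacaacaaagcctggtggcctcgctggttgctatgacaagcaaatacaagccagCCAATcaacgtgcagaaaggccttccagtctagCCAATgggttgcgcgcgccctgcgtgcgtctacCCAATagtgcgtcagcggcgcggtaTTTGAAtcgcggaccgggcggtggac
Cdk1: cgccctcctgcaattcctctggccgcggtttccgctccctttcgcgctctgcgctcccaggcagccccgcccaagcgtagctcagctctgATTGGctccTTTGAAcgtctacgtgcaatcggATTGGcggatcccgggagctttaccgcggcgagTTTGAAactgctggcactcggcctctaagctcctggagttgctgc
Plk1: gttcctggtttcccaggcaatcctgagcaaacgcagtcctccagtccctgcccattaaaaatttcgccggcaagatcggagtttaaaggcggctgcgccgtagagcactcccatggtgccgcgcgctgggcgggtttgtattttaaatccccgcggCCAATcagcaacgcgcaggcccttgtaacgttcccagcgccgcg
Birc5: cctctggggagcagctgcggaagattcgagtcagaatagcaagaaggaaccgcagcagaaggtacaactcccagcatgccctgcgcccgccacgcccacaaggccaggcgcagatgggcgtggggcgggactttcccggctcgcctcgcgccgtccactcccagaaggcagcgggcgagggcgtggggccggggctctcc
In Cenpf, boxes begin 132 and 71 bases before the start and a CHR element at base 3 after it. Ccnb2 has NF-Y boxes 87, 54 and 21 bases before the start, spaced evenly, and a CHR element at base 5, with another 167 bases before the start. In Cdk1, CHR elements begin 71 and 15 bases before the start, with boxes on the opposite strand at 80 and 48. Plk1 has a box 14 bases before the start, and its CHR element begins at base 31, beyond the printed stretch. The window of Birc5 holds neither set of letters. Cenpf, Ccnb2 and Cdk1 all have boxes upstream of a CHR element near the start, and their changes were -0.27, 0.13 and -0.039.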

How the data were processed

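Expression was measured on 6 arrays of mouse cerebellum at postnatal day 7, 3 per group, grouped by the sample titles. The values are log2 expression values per probe set that the authors made with RMA and oligo (per the submitters' processing notes, which give no versions); of the array's build and of filters nothing is stated in the sources used here. RMA normalizes arrays to a common distribution, so a shift of most genes would not be seen. Array medians were 7.25 to 7.29. Of 41345 probe sets, 23521 had 1 gene symbol in GEO's platform annotation, 1814 several and 16010 none; only the first kind was used, which gave 22180 genes.

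Knockout was set against wild type by limma 3.58.1 under R 4.3.3 (lmFit, eBayes with a mean-dependent prior variance, two-sided, Benjamini-Hochberg over 22180 genes, adjusted p under 0.05). The fit was also run on simulated data with independent noise for each gene. That run cannot show how calls behave when genes move together from array to array. Values per array are given for genes that passed, the 12 smallest p, the 3 next largest changes and 9 core genes (Mki67, Top2a, Cdk1, Foxm1, Mybl2, Aurkb, Plk1, Cdc20, Birc5), for genes of the other mitosis and S phase lists that passed, and, outside this rule, for Ndc80 and Spc25 as partners of Spc24 and for Nedd1, chosen after their values were seen. The genes, lists and alternatives were chosen with earlier results of these data known. Alternatives were other priors, normalizations, weights, probe set rules, thresholds, a replicate block, choroid plexus level as a covariate, and arrays left out. Python 3.11.15 with pandas 2.3.3, scipy 1.17.1 and matplotlib 3.10.9 handled tables, the permutation test and plots. Depth has no measure here; the number of arrays limits the precision.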

Additional observations from a re-analysis of the deposited data

How the results depend on the processing

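Spc24 passed in all 16 alternative fits and under both other thresholds, and the count of genes of the set that rose was 1 in each. The count that fell was 0 without a trend in the prior variance, with the choroid plexus covariate, without the arrays with Ttr above 10 and at an adjusted p under 0.01, and 0 to 1 with 1 array left out. None of the 53 other genes passed in any fit, and 20 of them changed sign in at least 1. The set's median ran from -0.096 to -0.026 with 1 array left out. Groups lay apart upward for 3 to 8 genes and downward for 9 to 25 with 1 array left out. The 25 came without wild-type replicate 2 (17.2% of all genes) and 20 without knockout replicate 1 (17.6% of all genes), and the 8 upward without knockout replicate 3 (17.4% of all genes). The counts were 14 upward and 22 downward without the arrays with high Ttr (36.6% and 34.5% of all genes), and 14 downward with median centring (14.6% of all genes).

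Among other mitosis genes, 1 rose with dim genes left out, with repeated quantile normalization, with the replicate block, with the choroid plexus covariate and without the arrays with high Ttr. 2 rose with array weights and at an adjusted p under 0.10, and 0 to 2 with 1 array left out. The number that fell was 1 without a trend, with the covariate and at 0.01, 0 without the arrays with high Ttr, 6 at 0.10, 4 with the replicate block and 1 to 4 with 1 array left out. Their median was 0.0068 with the covariate, 0.0022 without the arrays with high Ttr and 0.0044 without knockout replicate 3. Of the S phase genes 3 fell with the covariate, against 4 in the main fit. Their median was -0.075 with the covariate and -0.069 without the arrays with high Ttr, a fit that holds 1 knockout array. The cause of these differences was not tested.

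Replicate numbers were not used to pair the arrays in the main fit. Deviations of same-numbered arrays from their group means correlated at 0.014, 0.03 and -0.13. The labels do not say whether a shared number stands for a pairing, and low correlations cannot settle it. With the replicate block Spc24 and Cenpf still passed (adjusted p = 0.000409 and 0.0175).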

Other observations

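Spc24 lies on chromosome 9 in RefSeq's gene order, and the 5 measured genes on either side of it were read from the same fit after its value had been seen. The nearest of those used were Smarca4, the ATPase of the BAF remodelling complex, with a change of -0.039 (limma adjusted p = 0.79), and Kank2, with one of 0.15 (adjusted p = 0.369). On the far side of Kank2, Dock6 had a change of 0.19 (adjusted p = 0.144). Of the 10 neighbours 2 passed, in opposite directions, beside 6.67% of all genes. Rab3d, a vesicle GTPase, fell by 0.38 (adjusted p = 0.0091) and Tmem205 rose by 0.33 (adjusted p = 0.0326).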
